A study of Mus musculus with 12 samples.

Results

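The genes that copy DNA and supply its building blocks were followed in mouse dendritic cells before and after maturation, with and without the histone methyltransferase Ezh2. The set holds 34 genes, chosen by name: each array probe annotated with a member's current or older symbol was collected, and the brightest detected probe stood for the gene. Of these, 32 could be tested among 10908 genes in all. Pola1, the catalytic subunit of DNA polymerase alpha, was detected on 0 of 12 arrays, and Chek1, a checkpoint kinase, on 2. Cells were grown from the bone marrow of C57/B6 mice. Control (wild type) cells came from Ezh2f/f animals, in which the Ezh2 gene is floxed, and Ezh2-deficient cells from Ezh2f/f; Mx-cre animals, in which an interferon-inducible promoter drives the recombinase. All cultures received GM-CSF at 20 ng/ml and IL-4 at 10 ng/ml, then GM-CSF at 10 ng/ml from day 2, for 6 or 7 days. Immature cells were left untreated and mature cells received LPS, a bacterial cell wall component, at 100 ng/ml overnight. A starvation of 6 h without serum was used for mature cells in some experiments, and which arrays it touched is not given in the sources used here. Each of the 4 groups holds 3 arrays. Whether these came from separate animals or cultures is not stated, so the p-values reflect how far arrays of a group differ, which may be technical spread alone.

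DNA replication starts when Cdc6 and Cdt1 load the Mcm2 to Mcm7 helicase onto origins, a step called licensing. The kinase Cdc7 and the factors Cdc45, GINS and Mcm10 then switch the helicase on, and polymerases alpha, delta and epsilon copy the strands with the sliding clamp Pcna, its loader RFC and the single-strand binding protein RPA. Ribonucleotide reductase, thymidylate synthase and thymidine kinase supply deoxynucleotides. Many of these genes are known targets of E2F transcription factors and are expressed mainly in cells that enter S phase. Precursors of dendritic cells divide in GM-CSF culture, and mature dendritic cells are known to have left the cell cycle.

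The arrays detected 17892 to 19611 probes each, at median intensities of 108 to 119. The 4 arrays with replicate number 3 went against the labels of the others and are shown apart. Cdkn2a, a cell cycle inhibitor and known Polycomb target, read 4.55 to 5.04 (normalized log2 level) on the wild type arrays 1 and 2 and 7.28 to 7.84 on the Ezh2-deficient arrays 1 and 2. The wild type labels of number 3 went with 8.08 and 7.63, and its Ezh2-deficient labels with 4.70 and 4.57. Il6, a cytokine induced by LPS, stood at 11.99 where the label says wild type immature 3 and at 4.93 where it says wild type mature 3, against 5.17 to 6.45 on the immature and 11.82 to 12.58 on the mature arrays of numbers 1 and 2. A dim Ezh2 probe, ILMN_2988572, was not detected on Ezh2-deficient immature 1 and 2 and read 6.58 and 6.03 on the matching wild type arrays. It was detected on both Ezh2-deficient mature arrays, at 6.10 and 6.61, against 6.90 and 7.03 in wild type. The brighter probe, ILMN_1234171, did not separate the genotypes: 9.78 and 9.57 against 9.62 and 9.39 in immature cells, and 10.26 and 10.97 against 10.02 and 11.18 in mature cells, wild type first. All tests below use the 8 arrays of numbers 1 and 2. Fitted as labelled with all 12 arrays, 0 of the 32 genes passed in any comparison.

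The stretches of 250 bases before the start site are shown for 6 members: helicase subunits and both reductase subunits, whose levels fell with LPS, and Tyms and Pola2, whose levels did not fall. They come from RefSeq (GRCm38.p6), are written 5′ to 3′ on the gene's own strand, and carry E2F-type matches in capitals.
Mcm5, chr8:75109259-75109508, plus strand: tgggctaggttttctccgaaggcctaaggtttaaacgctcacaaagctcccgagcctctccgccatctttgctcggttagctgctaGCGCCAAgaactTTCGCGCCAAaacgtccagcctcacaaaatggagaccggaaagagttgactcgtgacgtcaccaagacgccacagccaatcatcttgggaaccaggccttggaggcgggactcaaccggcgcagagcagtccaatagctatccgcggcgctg
Mcm6, chr1:128359706-128359955, minus strand: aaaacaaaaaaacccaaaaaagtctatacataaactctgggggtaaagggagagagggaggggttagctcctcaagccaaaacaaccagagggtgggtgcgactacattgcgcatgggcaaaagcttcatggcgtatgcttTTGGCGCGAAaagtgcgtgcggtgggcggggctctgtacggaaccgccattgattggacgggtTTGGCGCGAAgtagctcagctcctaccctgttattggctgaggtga
Rrm1, chr7:102441445-102441694, plus strand: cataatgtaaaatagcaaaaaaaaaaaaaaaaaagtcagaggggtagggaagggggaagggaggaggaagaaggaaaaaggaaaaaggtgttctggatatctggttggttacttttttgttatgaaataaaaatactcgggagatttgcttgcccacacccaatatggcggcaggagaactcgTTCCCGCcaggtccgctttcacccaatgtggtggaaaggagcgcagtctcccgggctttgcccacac
Rrm2, chr12:24708004-24708253, plus strand: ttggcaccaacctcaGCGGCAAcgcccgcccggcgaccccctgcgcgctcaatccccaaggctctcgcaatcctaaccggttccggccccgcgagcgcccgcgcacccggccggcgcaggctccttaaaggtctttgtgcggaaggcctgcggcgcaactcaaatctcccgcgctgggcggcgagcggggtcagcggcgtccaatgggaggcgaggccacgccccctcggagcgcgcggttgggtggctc
Tyms, chr5:30073626-30073875, minus strand: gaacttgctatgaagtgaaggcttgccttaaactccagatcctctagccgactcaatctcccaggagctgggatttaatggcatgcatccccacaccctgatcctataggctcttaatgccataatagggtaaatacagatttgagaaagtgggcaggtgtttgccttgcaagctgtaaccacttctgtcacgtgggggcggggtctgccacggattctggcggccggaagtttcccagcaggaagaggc
Pola2, chr19:5964207-5964456, minus strand: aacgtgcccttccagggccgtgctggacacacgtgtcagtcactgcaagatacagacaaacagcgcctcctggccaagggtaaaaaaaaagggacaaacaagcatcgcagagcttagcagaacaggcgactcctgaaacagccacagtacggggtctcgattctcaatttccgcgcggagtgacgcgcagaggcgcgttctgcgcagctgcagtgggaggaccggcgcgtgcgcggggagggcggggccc
The first E2F-type word searched was TTCCCGC. The other words differ from it in the middle: TTGGCGC was the second word, TTCGCGC the third, and TTGCCGC the last. Both strands were read, and matches may overlap. Mcm5 held 3 such matches, Mcm6 held 4 in a pair of stretches, and Rrm1 and Rrm2 held 1 each, whereas the windows of Tyms and Pola2 held 0. A RefSeq window was found for 29 of the 34 members, all but Mcm4, Gins1, Gins2, Pole and Ccne2. Of these 29, 12 (41.4%) held a match before the start, and 18 (62.1%) held one when the 50 bases after the start were added. The shares over 27025 genes were 9.01% and 10.9%. Those are all RefSeq genes with a window and not only the 10908 tested, so the shares are not matched for expression. Of the 11 tested members with a match before the start 10 fell with LPS (9 of 10 without Prim1), and of the 16 with none 12 fell. Of the 16 tested members with a match in the longer window, 15 fell (14 of 15 without Prim1) and Rfc3 did not pass the test. The 11 without a match had 7 that fell (Mcm2, Cdc45, Mcm10, Pcna, Rfc5, Tk1 and Dut), 1 that rose (Tyms) and 3 that did not pass (Pola2, Ccne1 and E2f1). The CCAAT box (CCAAT) was in 48.3% of member windows before the start and in 37.5% of all genes, the cell cycle element CHR (TTTGAA or TTCGAA) in 20.7% and 19.6%, and the GC box (GGGCGG) in 65.5% and 35.4%. With Prim1 counted, 12 of the 13 tested members with a CCAAT box before the start fell, and 10 of the 14 without one. For CHR the same counts were 5 of 6 and 17 of 21, and for the GC box 14 of 18 and 8 of 9. These matches are descriptions of the letters and no measure of binding.

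Levels of the replication genes fell with LPS in both genotypes. With the genotypes averaged, 27 of the 32 tested members were lower in mature cells and 1, Tyms, was higher, while 4 did not pass the test (limma, adjusted p under 0.05 over all genes). Prim1, detected on immature arrays only, had to differ to be tested at all; without it 26 of 31 were lower. Across all 10908 genes 49.1% were called, 27.7% as lower and 21.4% as higher. The members' median log2 change was -1.32, against -0.03 over all genes, and 25 members changed by less than -1, which 12.6% of all genes did. For 26 members (25 without Prim1) every mature array lay below every immature array, and for 2, Tyms and Pola2, every mature array lay above. All genes gave such non-overlapping groups in 27.8% (lower) and 21.9% (higher) of cases. These are bulk samples, in which fewer cells that replicate DNA and less RNA per cell cannot be told apart. Some mature cultures may also have been starved of serum, and on such arrays LPS and starvation cannot be told apart. Changes with LPS here and below are therefore differences between mature and immature arrays.

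**Figure D1:**
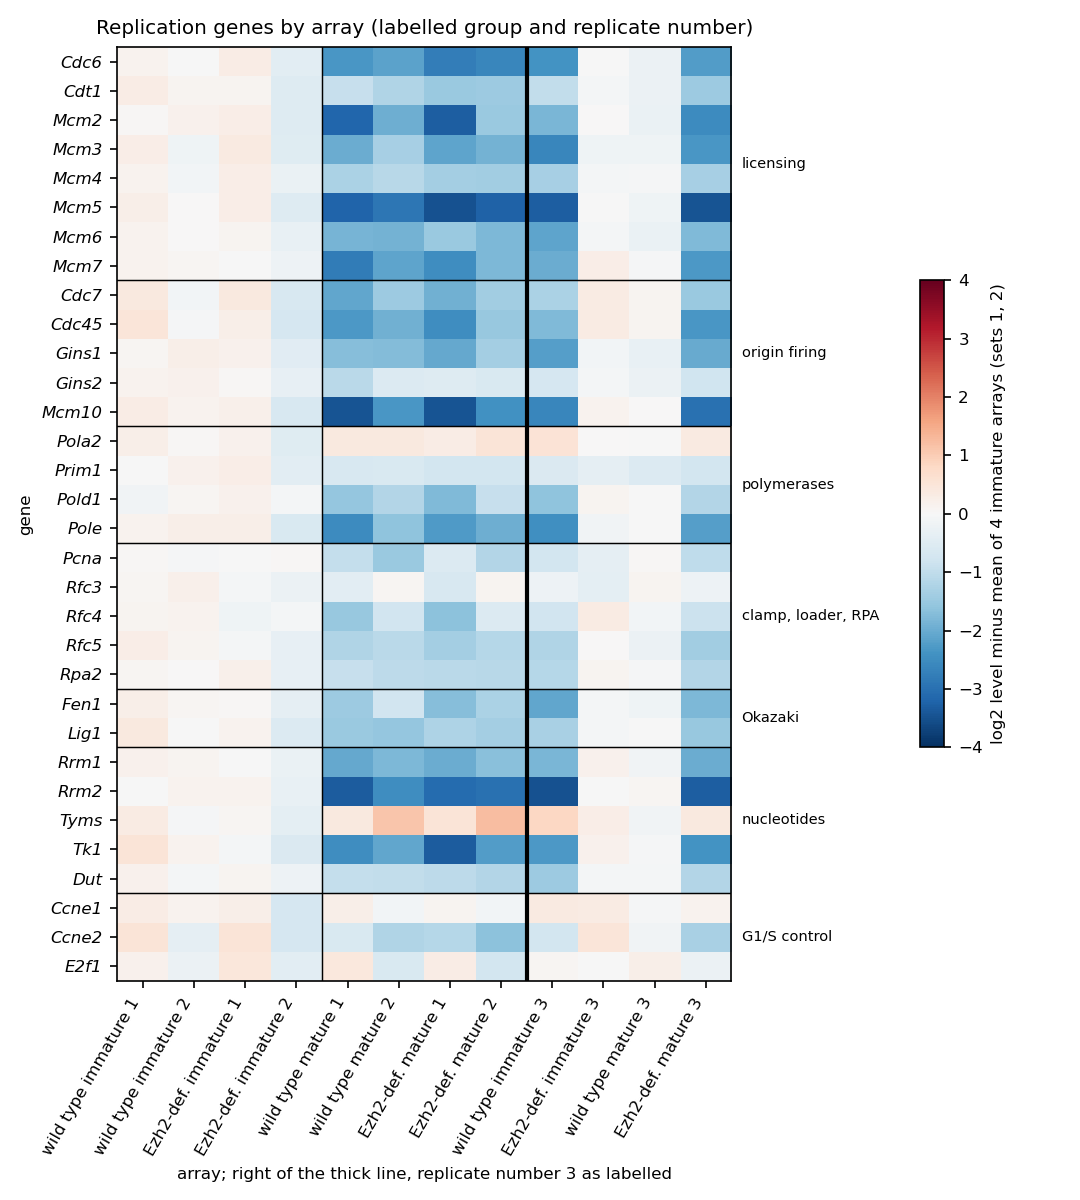
Normalized log2 level of the 32 tested genes (rows, by role) on each of 12 arrays (columns), minus the gene's mean over the 4 immature arrays of numbers 1 and 2. Red is above and blue below that mean; most rows are blue on the 4 mature arrays left of the thick line, while Tyms and Pola2 are red there.

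The licensing genes fell without exception: 8 of 8 passed the test, with a median log2 change of -2.07. Mcm5, a subunit of the helicase ring, read 11.26 and 11.05 on the wild type immature arrays and 11.29 and 10.50 on the Ezh2-deficient immature arrays. On the mature arrays it read 7.83 and 8.14 in wild type and 7.53 and 7.78 in Ezh2-deficient cells. All 4 mature arrays lay over 2 log2 units below the lowest immature array, and the averaged change was -3.21 (SE 0.19, adjusted p = 1.87e-05), or 9.25-fold lower. Mcm6, from the same ring, read 10.86 and 10.74 in wild type and 10.83 and 10.43 in Ezh2-deficient immature cells, then 8.86 and 8.83, and 9.23 and 8.92, in the mature ones. The groups did not overlap, and the change was -1.75 (SE 0.13, adjusted p = 4.3e-05). Among the other ring subunits the changes were -2.47 for Mcm2, -2.30 for Mcm7, -1.83 for Mcm3 and -1.28 for Mcm4. Mcm2 varied most between arrays: its fall was -3.23 and -3.56 in wild type and Ezh2-deficient set 1, and -2.15 and -0.96 in set 2, a set being the arrays that share a replicate number. The loader Cdc6 changed by -2.47 (SE 0.19). Its partner Cdt1 changed by -1.26 (SE 0.17), from 9.82 and 9.62 to 8.61 and 8.32 in wild type and from 9.64 and 9.02 to 8.05 and 8.07 in Ezh2-deficient cells, without overlap.

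All 5 origin firing genes were lower after LPS, with a median change of -1.72. Mcm10, which helps to activate the loaded helicase, read 9.48 and 9.31 in wild type and 9.37 and 8.53 in Ezh2-deficient immature cells. In mature cells it read 5.72 and 6.85, and 5.73 and 6.75. In both genotypes the array of set 1 was the lower of the mature pair, and the change was -2.91 (SE 0.34, adjusted p = 0.000263). Gins1, a subunit of the GINS complex, went from 7.58 and 7.74 to 5.80 and 5.77 in wild type and from 7.70 and 7.05 to 5.47 and 6.16 in Ezh2-deficient cells. Its groups stayed apart, with a change of -1.72 (SE 0.22, adjusted p = 0.000426). Cdc45, the helicase cofactor, changed by -2.06, the kinase gene Cdc7 by -1.70 and Gins2 by -0.70 (adjusted p = 0.0118), the least of the 5. The call of Gins2 was lost without Ezh2-deficient immature 1.

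Among polymerase and primase genes 3 of 4 tested members fell, or 2 of 3 without Prim1. Pole, the catalytic subunit of the leading strand polymerase epsilon, read 8.0 and 8.09 in wild type and 8.08 and 7.23 in Ezh2-deficient immature cells, and 5.32 and 6.24, and 5.60 and 5.91, in mature cells. That is a change of -2.08 (SE 0.27, adjusted p = 0.000449) with no overlap. Pold1, the catalytic subunit of polymerase delta, went from 10.13 and 10.34 to 8.72 and 9.10 in wild type and from 10.43 and 10.18 to 8.51 and 9.35 in Ezh2-deficient cells. Every mature array was lower, and the change was -1.35 (SE 0.20, adjusted p = 0.000952). Prim1, the primase subunit that makes the RNA primer, passed the test with -0.67 (SE 0.18, adjusted p = 0.0143), but was detected on 3 immature arrays and on 0 mature arrays. Its call was lost without wild type immature 2, and a filter of detection on 8 of 12 arrays removed it. Its fold is therefore a bound, at least 1.07-fold lower in wild type cells, and none can be given for Ezh2-deficient cells. Pola2, the regulatory subunit of polymerase alpha, went the other way without passing the test, with a change of 0.40 (95% interval 0.01 to 0.79, adjusted p = 0.0859). It read 8.49 and 8.32, and 8.44 and 7.79, on the immature arrays and 8.66 and 8.64, and 8.56 and 8.77, on the mature arrays, and the nearest values of the stages, 8.49 and 8.56, lay close together.

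Of the clamp, clamp loader and RPA genes 4 of 5 fell, by similar amounts. Rfc5, a loader subunit, went from 9.22 and 9.06 to 7.75 and 7.87 in wild type and from 8.87 and 8.61 to 7.58 and 7.81 in Ezh2-deficient cells. The change was -1.19 (SE 0.14, adjusted p = 0.000263) and the stages did not overlap. Rpa2, a subunit of the single-strand binding complex, read 7.65, 7.59, 7.78 and 7.25 on the immature arrays and 6.63, 6.53, 6.48 and 6.47 on the mature ones, wild type first. The mature values lay close together and apart from the immature ones, and the change was -1.04 (SE 0.16, adjusted p = 0.00128). A dimmer Rpa2 probe, ILMN_2543737, had a change of 0.34 with overlapping stages, the single second probe of any member with the opposite sign among 19. Rfc4 changed by -1.11 and Pcna by -1.04, and Rfc3, near background at 5.16 to 5.79 in wild type cells and not detected on the mature arrays of set 1, by -0.22 (adjusted p = 0.423).

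Both genes of Okazaki fragment joining fell. Lig1, the ligase that seals the fragments, read 9.74 and 9.32, and 9.49 and 8.80, on the immature arrays and 7.86 and 7.79, and 8.10 and 7.98, on the mature arrays, wild type first. Its change was -1.41 (SE 0.18, adjusted p = 0.000498). Fen1, the nuclease that trims the primer flap, went from 11.21 and 11.03 to 9.52 and 10.19 in wild type and from 11.01 and 10.62 to 9.26 and 9.71 in Ezh2-deficient cells. The stages stayed apart, with a change of -1.30 (SE 0.19, adjusted p = 0.000857) and a smaller fall in set 2 (-0.83 and -0.91) than in set 1 (-1.70 and -1.75).

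The nucleotide synthesis genes split, with 4 lower and 1 higher of 5. Rrm2, the subunit of ribonucleotide reductase that carries the radical, read 8.23 and 8.39 in wild type and 8.40 and 7.96 in Ezh2-deficient immature cells. In mature cells it read 4.91 and 5.77, and 5.18 and 5.26, and was detected on neither mature array of set 1. The change was -2.96 (SE 0.22, adjusted p = 3.95e-05). Rrm1, the large reductase subunit, went from 10.46 and 10.39 to 8.26 and 8.49 in wild type and from 10.29 and 10.03 to 8.30 and 8.61 in Ezh2-deficient cells, a change of -1.88 (SE 0.13, adjusted p = 3.18e-05). Tk1, the S phase thymidine kinase, read 9.84 and 9.46, and 9.26 and 8.75, on the immature arrays and 6.85 and 7.26, and 5.99 and 7.09, on the mature ones. It fell by 2.53 on the log2 scale (SE 0.27), and Dut, which removes dUTP, fell by 1.04 (SE 0.15).

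Tyms, which makes thymidylate from deoxyuridylate, rose. It read 9.48 and 9.11 in wild type and 9.23 and 8.77 in Ezh2-deficient immature cells, and 9.54 and 10.26, and 9.66 and 10.39, after LPS. Each mature array was above each immature array, but the array of wild type set 1 moved by 0.05 only, against 1.14, 0.43 and 1.62 in wild type set 2 and Ezh2-deficient sets 1 and 2. The averaged change was 0.81 (SE 0.23, adjusted p = 0.0214), or 1.76-fold higher. A second Tyms probe detected on all arrays, ILMN_1247173, was higher by 0.70. The call was lost, with adjusted p up to 0.0775, when any single array of set 2 was left out.

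Of the G1/S control genes 1 of 3 tested members fell. Ccne2, a cyclin E, read 7.33 and 6.47, and 7.35 and 6.17, on the immature arrays and 6.23 and 5.63, and 5.70 and 5.18, on the mature arrays. The stages overlapped because set 2 was lower throughout, each pair fell by 0.83 to 1.65, and the change was -1.14 (SE 0.33, adjusted p = 0.0205). The call ended without any of 4 arrays (number 1 of both immature groups, number 2 of both mature groups), with adjusted p up to 0.0738. E2f1, a transcription factor of the S phase program, read 10.30 and 9.89, and 10.58 and 9.69, before LPS and 10.54 and 9.50, and 10.42 and 9.38, after it. Its 4 values in set 1 all lay above its 4 values in set 2, and the stages overlapped, with a change of -0.15 (95% interval -0.92 to 0.61, adjusted p = 0.729) that turned to 0.07 without Ezh2-deficient immature 1 and 0.11 without wild type mature 2 or Ezh2-deficient mature 2. Ccne1, the other cyclin E, changed by 0.04 (95% interval -0.48 to 0.55).

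**Figure D2:**
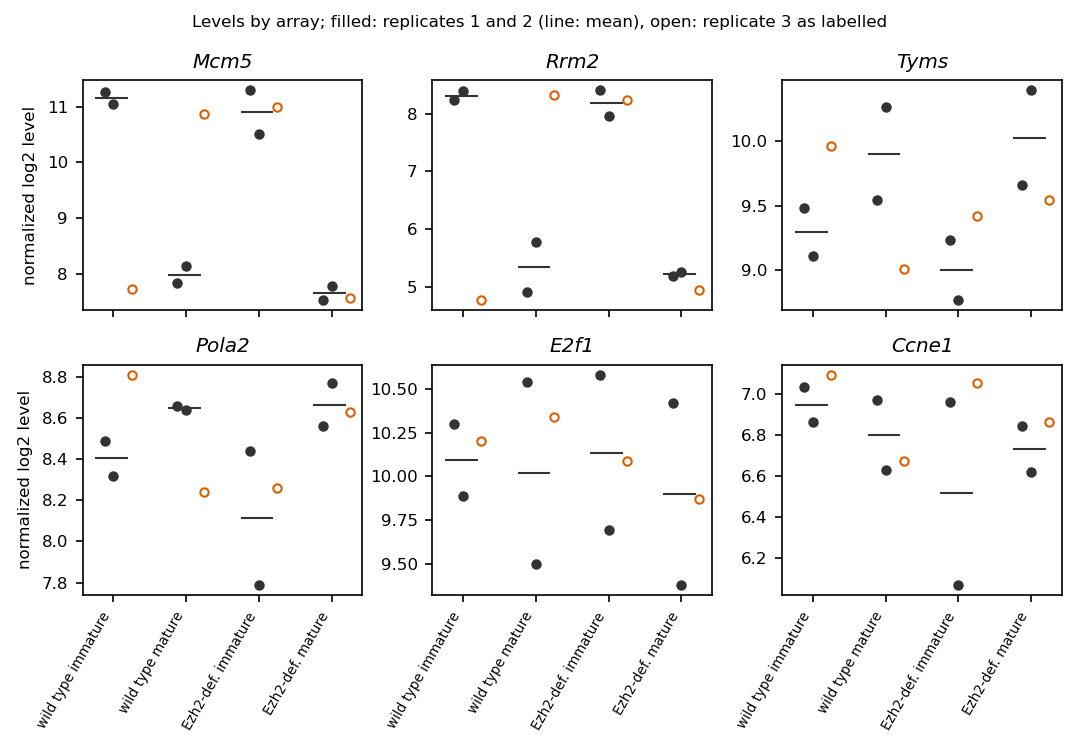
Normalized log2 level (vertical axis, its own range in each panel) of 6 members in the 4 labelled groups; filled points are arrays 1 and 2 with their mean as a line, and open points are arrays labelled number 3. Mcm5 and Rrm2 are low in both mature groups, Tyms and Pola2 are higher there, and E2f1 and Ccne1 overlap between stages.

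The sizes of these changes depend on how background was removed. In quantile-normalized values without background correction, Rrm2 changed by -1.63, Mcm10 by -1.99, Pole by -1.16, Gins1 by -0.92 and Ccne2 by -0.54, and Mcm5 by -2.79. The same 28 members were called. In RefSeq the locus of Mcm7 also holds Mir25, Mir93 and Mir106b, and those of Cdc45, Rfc4, Fen1, Tk1, Lig1, Gins2, E2f1 and Ccne2 overlap Ufd1, Eif4a2, Tmem258, Afmid, Zswim9, Gse1, Necab3 and Ints8. Signal from such neighbours was not separated here.

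Within wild type cells 25 members were called, all lower, with a median change of -1.33; of all genes 30.3% were called in that comparison and 17.7% were lower. Within Ezh2-deficient cells 23 were lower and 1, Tyms, higher, with a median of -1.35; of all genes 36% were called, 20.8% as lower and 15.2% as higher. Mcm5 fell by 3.17 in wild type and by 3.24 in Ezh2-deficient cells, Rrm2 by 2.97 and 2.96, and Cdc6 changed by -2.31 and -2.64 (log2). With wild type given first, Gins2 changed by -0.98 (adjusted p = 0.0204) and -0.42 (adjusted p = 0.228), Rfc4 by -1.25 (adjusted p = 0.0371) and -0.98 (adjusted p = 0.0743), and Tyms by 0.60 (adjusted p = 0.211) and 1.03 (adjusted p = 0.0434). Which members were called within a genotype depended on single arrays. With each array left out in turn, the members' median change was -1.61 to -1.33 in wild type and -1.61 to -1.07 in Ezh2-deficient cells.

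**Figure D3:**
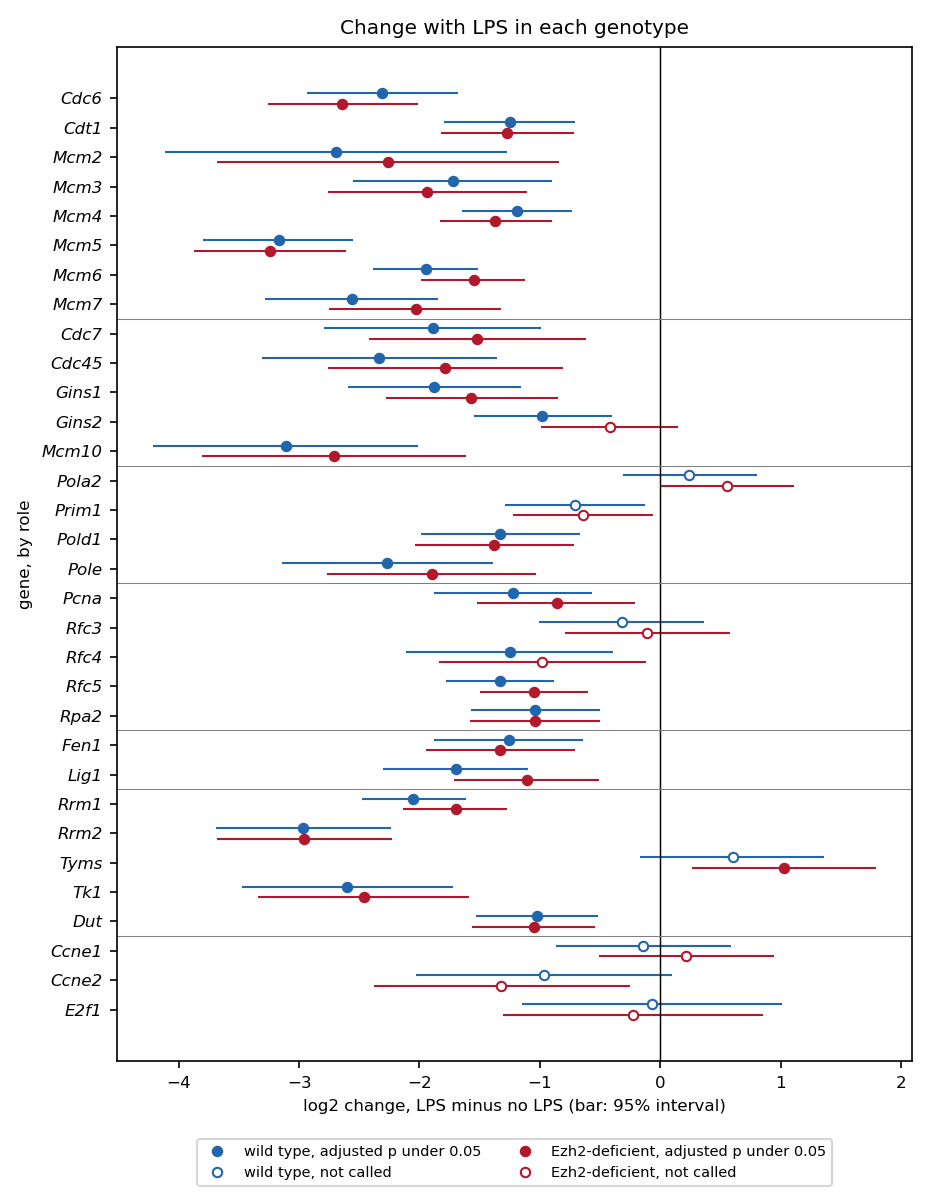
Log2 change with LPS of each member (rows, by role) in wild type (blue) and Ezh2-deficient (red) cells, with 95% intervals from the fit as bars. Filled points passed an adjusted p of 0.05; the intervals of the genotypes overlap for each of the 32 genes.

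The difference of the LPS responses was tested directly. No member passed, 0 had an unadjusted p under 0.05, and 0% of all genes were called (1.55% had an unadjusted p under 0.05). The smallest p values belonged to Lig1, with a difference of 0.59 (SE 0.37, unadjusted p = 0.147), Gins2, with 0.56 (SE 0.35, unadjusted p = 0.15), and Mcm6, with 0.39 (SE 0.27, unadjusted p = 0.180), all adjusted p = 0.9997 in limma. A positive value means a smaller fall in Ezh2-deficient cells. The 95% interval for Mcm5 ran from -0.96 to 0.82 and that for Rrm2 from -1.01 to 1.04, so differences of such sizes cannot be told from 0 with 2 arrays a group. The median over members was 0.28 and 11 of 32 were negative, against 50.3% of all genes. That median was -0.07 without Ezh2-deficient immature 2 and 0.02 without Ezh2-deficient mature 2.

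No member passed the test between genotypes at either stage. In immature cells 29 of 32 members were lower in Ezh2-deficient cells, with a median difference of -0.26, and 0 had an unadjusted p under 0.05. Of all genes 52.8% were lower, 3.05% had an unadjusted p under 0.05 and 0.0275% were called. The smallest p values were those of Rfc5, at -0.40 (SE 0.19, unadjusted p = 0.0739), Tk1, at -0.65 (SE 0.38, unadjusted p = 0.126), and Cdt1, at -0.39 (SE 0.24, unadjusted p = 0.138), each with an adjusted p of 1 in limma. In mature cells 18 members and 52.7% of all genes were lower, the members' median was -0.06 and 0.0183% of all genes were called. There Cdt1 differed by -0.40 (SE 0.24, unadjusted p = 0.128), Cdc6 by -0.45 (SE 0.27, unadjusted p = 0.132) and Fen1 by -0.37 (SE 0.27, unadjusted p = 0.205), at adjusted p = 0.9997 in limma. Averaged over both stages Cdt1 had the smallest p, with -0.40 (SE 0.17, unadjusted p = 0.0457, adjusted p = 0.815 in limma), Tk1 was at -0.58 (unadjusted p = 0.0618), Rfc5 at -0.26 and Fen1 at -0.34. In that comparison 0 members and 0.055% of all genes were called, and 1 member and 6.1% of all genes had an unadjusted p under 0.05. The widest 95% intervals reached 1.66 log2 units in immature cells and 1.60 in mature cells, both for Mcm2.

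The immature difference rested on 1 array. Ezh2-deficient immature 2 was the lowest of the 4 immature arrays for 29 of 32 members, which it was for 28.5% of all genes. The median difference between genotypes in immature cells was -0.44 in set 2, with 31 members lower, and -0.06 in set 1, with 18 lower. Without that array the median was 0.03, and without Ezh2-deficient immature 1 it was -0.52. For 8 members the immature genotypes did not overlap, all lower in Ezh2-deficient cells, against 17.1% of all genes. Mature cells gave 7 such members on the lower side and 2, Mcm6 and Lig1, on the higher side, against 15.1% and 12.8% of all genes. The 7 include Prim1, which was detected on 0 mature arrays, so its gap lies within background.

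**Figure D4:**
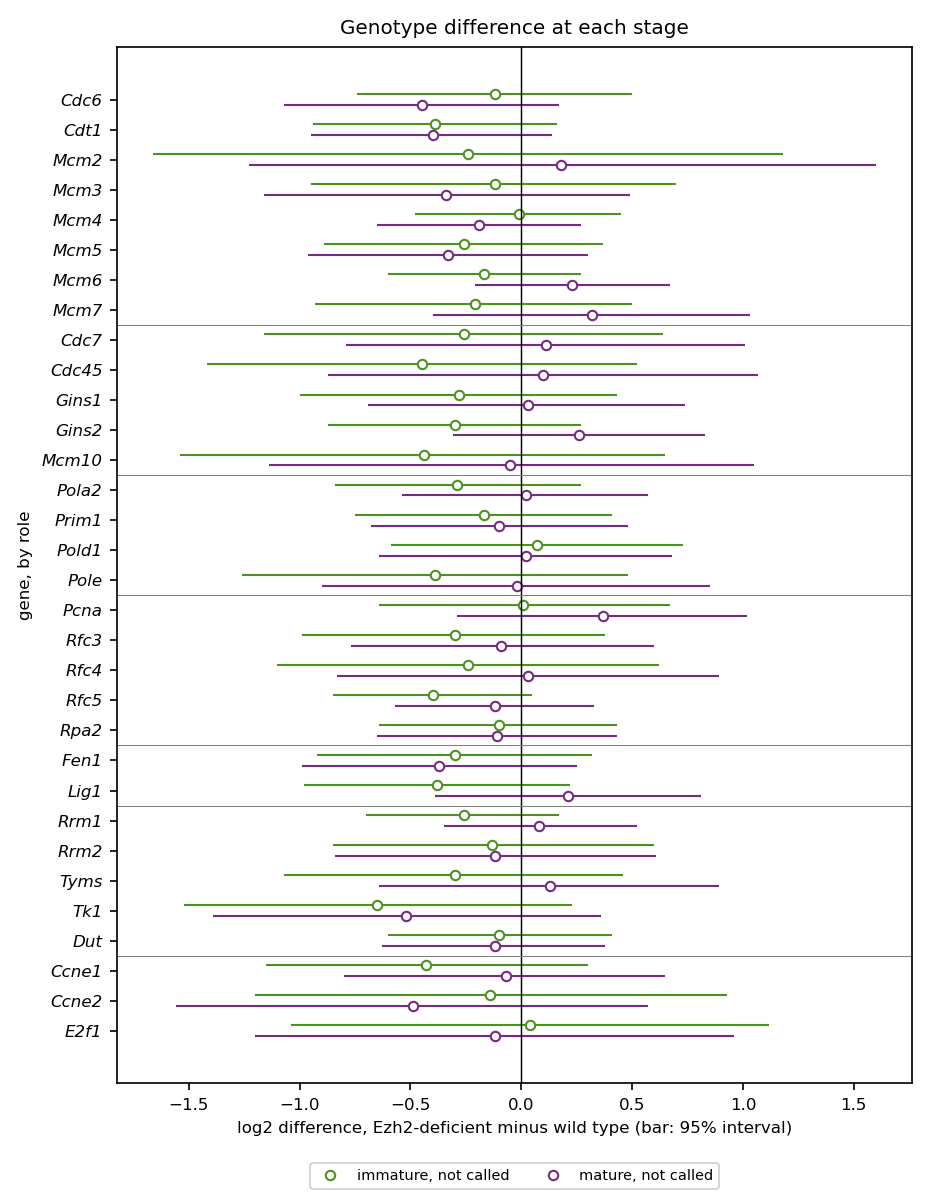
Log2 difference, Ezh2-deficient minus wild type, of each member in immature (green) and mature (purple) cells, with 95% intervals as bars. Open points did not pass the test; each interval includes 0.

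The arrays labelled number 3 gave the following values as labelled. On the pair labelled Ezh2-deficient 29 of 32 members were lower on the array labelled mature, with a median difference of -1.57, and Pola2, Rfc3 and Tyms were higher. On the pair labelled wild type 29 members were higher on the array labelled mature, with a median of 1.38, and Tyms, Pola2 and Ccne1 were lower. Mcm5, for example, read 7.72 under the label immature and 10.86 under the label mature in the wild type pair, and 11.00 and 7.56 on the pair labelled Ezh2-deficient.

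Other genes of the pathway moved in part with the members. Of 32 other replication genes tested, 16 fell and 4 rose, with a median of -0.51. Rpa1, the large RPA subunit, fell by 1.38 (SE 0.10) and Tipin, which protects stalled forks, by 1.52 (SE 0.11), while Top1, a topoisomerase, rose by 0.76 (SE 0.14) and Pold4, a small subunit of polymerase delta, by 0.60 (SE 0.14). Of 27 other nucleotide genes 17 fell and 3 rose, with a median of -0.92. Ctps, which makes CTP, fell by 3.0 (SE 0.26) and Dtymk, the next kinase after Tk1, by 1.95 (SE 0.15). On the rising side were Dck, the deoxycytidine salvage kinase, at 1.41 (SE 0.22), and Samhd1, which breaks down dNTPs, at 1.31 (SE 0.11).

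Of 29 other G1/S genes 15 fell and 4 rose. E2f2, an activating E2F factor, fell by 3.63 (SE 0.19) and Asf1b, a histone chaperone, changed by -2.34 (SE 0.17). Ccnd2, a D-type cyclin, rose by 2.55 (SE 0.27) and E2f5, a repressive E2F factor, by 1.30 (SE 0.11). The D-type cyclins went different ways, since Ccnd1 fell by 3.9 (SE 0.46) and Ccnd3, at -0.14 (SE 0.13), did not pass. Of 7 CDK inhibitor genes 4 rose and 1, Cdkn2c, fell by 1.09 (SE 0.25). Cdkn2b rose by 1.86 (SE 0.10), Cdkn1a by 1.58 (SE 0.13), Cdkn1b by 1.36 (SE 0.17) and Cdkn2d by 0.75 (SE 0.19). Mitosis genes, which act after replication, gave 29 lower and 1 higher of 33, with a median of -2.59. Cdca8, of the chromosomal passenger complex, fell by 2.89 (SE 0.15) and Espl1, the separase, fell by 2.59 (SE 0.15), while its inhibitor gene Pttg1 rose by 0.79 (SE 0.21). In immature cells 32 of 33 mitosis genes were lower in Ezh2-deficient arrays, against 52.8% of all genes, with a median of -0.57 and 0 called. Their median difference was -0.65 in set 1 and -0.49 in set 2. For 26 of them the genotypes did not overlap, on the lower side, against 17.1% of all genes.

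**Figure D5:**
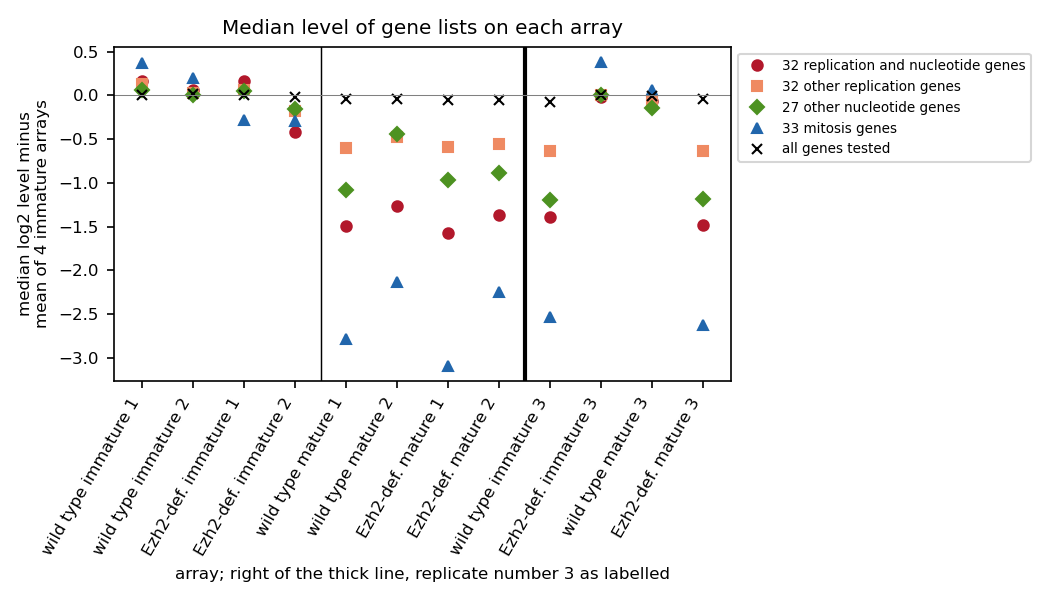
Median over each gene list of the log2 level minus the gene's mean on the 4 immature arrays of numbers 1 and 2 (vertical axis), for each of 12 arrays. Member medians lie between -1.57 and -1.27 on the 4 mature arrays and between -0.42 and 0.17 on the 4 immature ones; mitosis genes lie lower on each mature array.

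The dendritic label was checked against 11 markers, of which 10 were detected and Flt3 was on 0 arrays. Their summed linear level was 165000 to 169000 on the immature and 167000 to 202000 on the mature arrays. Of the 10, 3 fell with LPS (Itgax by 1.28, Cd209a at -1.19 and Ciita at -0.79) and Ccl22 rose by 2.19. All 7 maturation markers tested rose, but Il6, one of them, was also read to set the number 3 arrays apart. The smallest change of the others was that of Ccr7, at 0.95, and the largest that of Cd40, at 2.82. Markers of other cells moved with LPS beside the members, and their part in the result was not tested. The summed level of 11 progenitor markers was 1850 to 3760 in immature and 1230 to 1610 in mature cells. Of these, 6 were lower, among them Kit at -0.96 and Mpo at -3.12, and 1, Gfi1, was higher by 2.18. Elane, Prtn3, Ctsg and Myb were not called, and Hoxa9 was detected on 0 arrays. Of 9 macrophage markers 5 fell and the sum went from 20000 to 24900 down to 7380 to 14600. Of 11 neutrophil markers 7 had negative changes, 4 of them called, and only Lcn2 was called higher, by 5.28. Their sum went from 4880 to 28100 up to 23900 to 50000. Of 6 mast cell and basophil markers 4 had negative changes, 1 of them called, and only Hdc was called higher, by 4.68. Their sum went from 1260 to 3180 up to 9810 to 13900, with Ms4a2, Tpsb2, Tpsab1 and Cma1 on 0 arrays. A linear sum can follow 1 bright gene, so neither rise stands for the markers as a set. T and NK cell markers (5 tested, with Cd8a, Cd4 and Ncr1 on 0 arrays) summed to 148 to 188 on mature arrays. On immature arrays they summed to 533 to 654 in wild type and 2280 to 3260 in Ezh2-deficient cells. Only Cd3g was called there, higher by 3.0 in Ezh2-deficient cells (adjusted p = 0.0177 in limma). Cd3d (0.41) and Klrb1c (0.16) were higher without passing, and Cd3e (-0.36) and Nkg7 (-0.59) were lower. Erythroid markers (3 tested) summed to 2320 to 3940 on immature and 666 to 1110 on mature arrays. Only Tfrc was called among them, at -1.85, while Hba-a1 (-0.25) and Epor (-0.12) did not pass. B cell markers (4 tested) summed to 133 to 231 on immature and 182 to 250 on mature arrays.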

How the data were processed

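RNA of 12 samples was amplified with an Illumina TotalPrep kit and hybridised to Illumina bead arrays, 3 a group. Per the file headers, the deposited files hold, for 45281 probes, the mean intensity and the p-value of detection. The authors also deposited a log2 table, whose values match quantile-normalized intensities without background correction. The deposited intensity values were not normalized. Per the submitters' processing notes BeadStudio, R 2.15.2 and limma were used; which step each served is not given in the sources used here. No genome build is given in the sources used here.

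Background correction, quantile normalization of the 12 arrays together and the log2 step were done with neqc (limma 3.58.1, R 4.3.3), with offset 16 and the detection p-values in place of negative control signals. Quantile normalization gives all arrays 1 distribution, so a shift shared by most genes would not be seen. A probe was kept if its detection p was below 0.05 on 3 or more of the 12 arrays (21049 probes), symbols were updated through RefSeq, and the brightest probe stood for each of 10908 genes. A gene thus kept only for its high group had to differ, which applies to Prim1. Group means of the 8 arrays of replicate numbers 1 and 2 were fitted with limma (trended eBayes) in 7 comparisons, with two-sided p-values adjusted by Benjamini-Hochberg over all genes and calls at an adjusted p under 0.05. The code was tested on simulated data.

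The members, lists and the choice of the 8 arrays were made with earlier results of these data known, and p-values do not account for that. Named genes were, in each of 7 roles, the 2 members with the smallest p for LPS, any called with the opposite sign, the 4 with the smallest p for genotype and the 3 smallest in each other comparison. Of the other pathway lists up to 2 risen and 2 fallen genes with the smallest p were named. Cdkn1b, Cdkn2d, Ccnd1, Ccnd3, Ints8 and other neighbours were added after their values were seen. The same holds for the dendritic, maturation and other cell type markers named with values, and for Hdc. Alternatives changed the background correction, normalization, probe choice, filter, arrays and replicate block. Figures were drawn with matplotlib 3.10.9 in Python 3.11.15 (pandas 2.3.3).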

Additional observations from a re-analysis of the deposited data

How the results depend on the processing

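Directions of the members' median changes with LPS held in all settings, and calls did not. Shares over all genes are given for the main fit only, so the counts below have no background beside them. Averaged over the genotypes, the median LPS change of all genes was -0.01 with all 12 arrays as labelled. In quantile-normalized values without background correction that median was -0.02. With all 12 arrays as labelled, 0 members were called for LPS averaged over the genotypes (median -0.95, 26 with an unadjusted limma p under 0.05), in wild type cells (median -0.57, 0 with p under 0.05) and in Ezh2-deficient cells (26 with p under 0.05). The same fit gave medians of 0.39 and -0.50 for genotype in immature and mature cells, and -0.94 for the difference of LPS responses. Without the pair labelled wild type 3, an alternative chosen after seeing the data, 29, 26 and 29 members were called. That fit counts the pair labelled Ezh2-deficient 3 as Ezh2-deficient. Its Cdkn2a levels were 4.70 and 4.57, against 4.55 to 5.04 on the wild type arrays 1 and 2, so its count for that genotype is uncertain. Quantile normalization without background correction and the deposited log2 values each gave medians of -1.06 averaged and -0.97 in Ezh2-deficient cells, with 28 and 25 called. Leaving out each array in turn gave 26 to 28 members called (averaged, median -1.43 to -1.22), 16 to 25 (wild type, -1.61 to -1.33), 15 to 24 (Ezh2-deficient, -1.61 to -1.07) and 0 for genotype, with medians of -0.52 to 0.03 in immature, -0.21 to 0.06 in mature and -0.28 to 0.02 in averaged cells. The difference of LPS responses had medians of -0.07 to 0.40. E2f1 changed by -0.41 to 0.11, with 0.07 without Ezh2-deficient immature 1 and 0.11 without wild type mature 2 or Ezh2-deficient mature 2. The replicate number as a block gave 28 (averaged), 26 (wild type, adding Ccne2) and 26 (Ezh2-deficient, adding Ccne2 and Rfc4) called and 0 for genotype. The labels state no pairing; same-numbered arrays deviated together at r = 0.22 to 0.72 over 6 pairs of groups, a hint from the data. The cause of these changes was not tested. With 2 arrays a group and dim probes near background (Prim1, Rfc3, Chek1, Pola1), small changes could not be seen.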

Other observations

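Of the 72 probes annotated to the 34 members, 18 were detected on 0 arrays. Second probes were kept for 13 members, 19 in all, and 18 of these changed in the same direction with LPS as the brightest probe. Among the 18, ILMN_2523963 (Dut), ILMN_1213101 and ILMN_2657356 (Lig1), ILMN_2679464 (Mcm10), ILMN_2673889 (Mcm7) and ILMN_2714565 (Rrm2) were detected on 4 immature and 0 mature arrays of sets 1 and 2. Kept through the group where they were high, these probes had to fall and add no support.

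Across the 8 arrays E2f1 separated by replicate number and not by stage. It was at 10.30 to 10.58 on the 4 arrays of set 1 and at 9.38 to 9.89 on the 4 arrays of set 2. The arrays of set 1 also had the larger LPS falls over the members, with medians of -1.65 in wild type and -1.64 in Ezh2-deficient cells, against -1.27 and -0.93 in set 2. Its immature arrays had summed progenitor markers of 3530 (wild type) and 3760 (Ezh2-deficient), against 1850 and 2050 in set 2, and summed neutrophil markers of 28100 and 20300, against 11500 and 4880. Their part in the result was not tested. Replicate number and any day or batch it may stand for cannot be told apart.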
